A study of Zea mays with 6 samples.

Results

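The middle of maize chromosome 4, from 20 to 140 Mb, holds HDA108, the gene that is mutated in the hda108 plants. Its genes were taken as the entries of the deposited leaf table that start in this interval, that were above 0 in both genotypes and whose mean was at least 1 FPKM (fragments normalised for transcript length and library size). Of 1373 entries in the interval, 637 met this rule, out of 21057 genes compared over the whole genome. The other 736 comprised 386 entries listed at 0 in both genotypes, 57 at 0 in wild type, 54 at 0 in hda108 and 239 whose mean was below 1 FPKM. The bounds of the interval were drawn with earlier results of these data known.

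RNA came from the developing 11th leaf, still enclosed by older leaves, of greenhouse maize plants at vegetative stage 8. The wild-type group and the homozygous hda108/hda108 group each had 3 strand-specific libraries, made from total RNA after ribosomal RNA had been removed. The table gives the authors' value for each gene and genotype, not for each library. The spread between plants is thus unknown for every difference reported, and neither errors nor p-values are given. The labels do not state the hda108 allele, how it was made, or the lines crossed to obtain either group.

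Histone deacetylases such as HDA108 take acetyl groups off the histones, which is associated with lowered transcription of the chromatin they act on. A mutation brought into a line by crossing is accompanied by the neighbouring DNA of the parent that carried it. Around a maize centromere crossing-over is rare, so such a linked segment can be long. Within it, transcript levels can differ because the parental copies of the genes differ, whatever the mutated gene does. In the present design such a segment and the loss of HDA108 cannot be told apart.

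The whole table summed to 478867 FPKM in wild type against 482019 FPKM in hda108, and the interval held 3.32% and 3.14% of these sums. The depth behind the values is unknown. As a check of the tissue, the 5 leaf photosynthesis markers found by name lay between 133 and 1111 FPKM in wild type and between 78.9 and 455 FPKM in hda108. The meristem gene kn1 was at 0.0245 FPKM or below in both genotypes. Of the root markers, rtcs1 was listed at 0 and rth3 had 4.31 FPKM in wild type against 8.50 FPKM in hda108. The 2 anther markers found were at 0.0501 FPKM or below and the 2 kernel storage markers were listed at 0. The lower level of the photosynthesis markers in hda108 concerns the whole leaf, and its part in the differences below was not tested. In RNA from a whole organ, fewer cells of a type and less RNA per cell cannot be told apart.

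The targeted gene was examined first. HDA108 (GRMZM2G136067, chromosome 4, 65983217 to 65988818, B73 RefGen_v3) had 10.9 FPKM in wild type against 3.06 FPKM in hda108, or 28.1% of the wild-type value. Differences are given as log2 of FPKM + 0.5 in hda108 minus the same in wild type, and that of HDA108 was -1.68. Folds are on this scale too, which understates the differences of genes with low values.

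The genes closest to HDA108 showed little of this. On the side of lower coordinates, the nearest 3 compared identifiers (GRMZM2G365423, GRMZM2G389303 and GRMZM2G437977) all match AKHSDH1, an aspartate kinase and homoserine dehydrogenase of amino acid synthesis. GRMZM2G365423, whose end lies 131 kb from HDA108, had 18.8 FPKM in wild type against 17.6 FPKM in hda108. GRMZM2G389303 had 26.6 FPKM in wild type against 19.6 FPKM in hda108, a difference of -0.43, and GRMZM2G437977 had 11.6 FPKM in both. Next on that side came GRMZM2G010834 (14.2 FPKM in wild type against 13.6 FPKM in hda108) and GRMZM2G169207 (19.8 and 17.7 FPKM). None of these identifiers differed by 1.5-fold.

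On the side of higher coordinates, the nearest compared gene, GRMZM2G310652, starts 319 kb away. It had 1.87 FPKM in wild type against 3.32 FPKM in hda108, a 1.61-fold difference upward. GRMZM2G115775 had 49.3 FPKM in wild type against 35.0 FPKM in hda108, a difference of -0.49. GRMZM2G352132 was higher, at 5.96 FPKM in wild type against 9.06 FPKM in hda108. GRMZM2G141355 (0.08) and GRMZM2G030628 (0.10) differed least. Among these 10 neighbours, counted by identifier, none reached 2-fold, and the differences went both ways. Of all compared genes 2.31% were past 2-fold, so no call among 10 is near that share.

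How often genes of the interval differed was compared with the rest of the genome. A gene was called when its listed values differed at least 2-fold on the scale above. Of the 637 genes, 41 were called (6.44%), 21 higher in hda108 and 20 lower, while the background was 2.04% of the 18958 genes outside chromosome 4 and 2.31% of all compared genes. The share was 3.15 times that outside chromosome 4. HDA108 is 1 of the 41, and without it 40 of 636 genes were called (6.29%).

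Within these bounds the share was above the background in both directions. Genes at least 2-fold lower made up 3.14% of the interval against 0.659% outside chromosome 4, a ratio of 4.76. Genes at least 2-fold higher made up 3.30% against 1.38%, a ratio of 2.39. The upward part depended on the bounds. Between 40 and 120 Mb 6 of 342 genes were higher (1.75%), a ratio of 1.27, while 11 were lower (3.22%), a ratio of 4.88. The middle of the distribution did not move with it. The median difference was 0.06 in the interval, and it was also 0.06 over all compared genes. What differed from the genes outside chromosome 4 was the width. The interquartile range of the differences was 0.45 in the interval, 1.28 times that outside chromosome 4.

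The contrast with the background grew with the size of the difference, more among lower than among higher genes. At least 1.5-fold were 100 of the 637 genes (15.7%) against a background of 8.43% outside chromosome 4, a ratio of 1.86. At least 3-fold were 17 genes (2.67%) against 0.39%, a ratio of 6.84. Of these 17, 5 were higher and 12 lower, against 59 higher and 15 lower outside chromosome 4. At least 4-fold were 13 genes (2.04%) against 0.19%, a ratio of 10.7. Of these 13, 8 were lower in hda108, whereas 5 of 18958 genes outside chromosome 4 (0.0264%) were 4-fold lower. The other 5 were higher, against 31 outside chromosome 4. Of the 13, GRMZM2G040508, GRMZM2G094083, GRMZM2G109830 and GRMZM2G086190 (lower) and GRMZM2G433684 (higher) lie in the last 2 Mb described below. Most genes of the interval nevertheless lay close to equality, with 537 of 637 (84.3%) within 1.5-fold. Outside chromosome 4 that share was 91.6%.

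**Figure D1:**
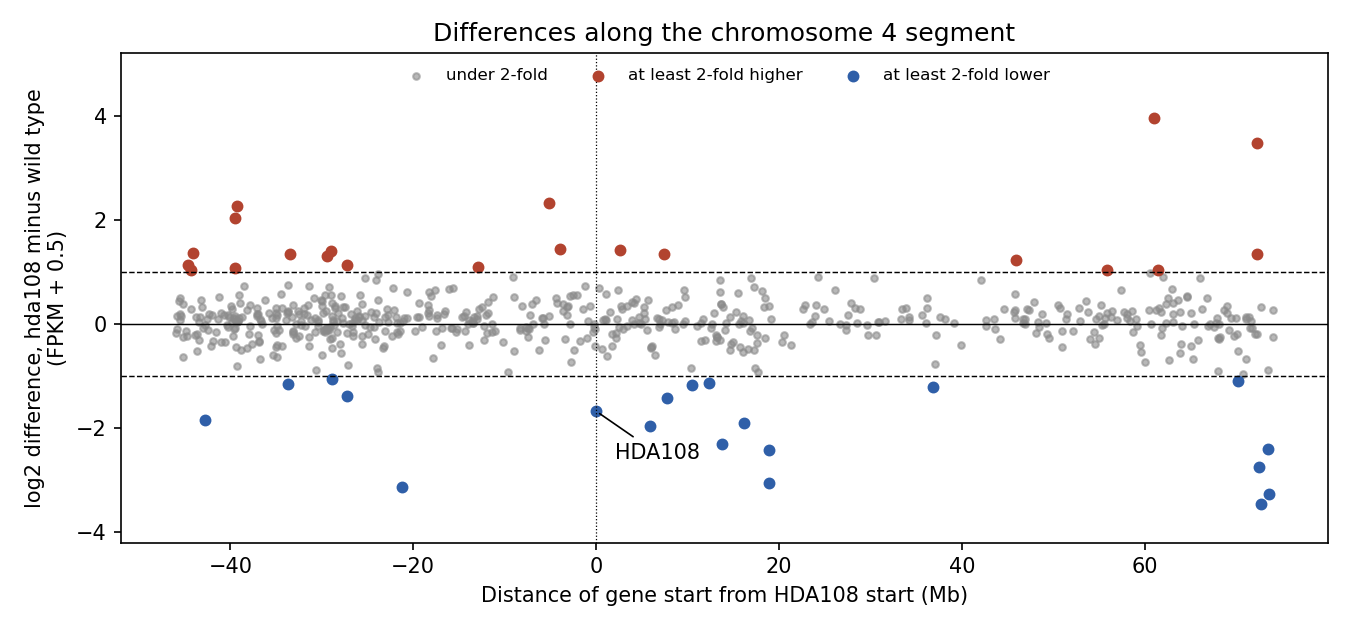
Each point is 1 of the 637 compared genes, placed by the distance of its start from that of HDA108 in Mb (x axis) and by its log2 difference, hda108 minus wild type (y axis); dashed lines mark 2-fold. The 41 coloured genes lie on both sides of HDA108, 21 above and 20 below, with large differences in both directions at the right edge.

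The same 20 to 140 Mb stretch of each of the other 9 chromosomes served as a comparison of equal length. These stretches held between 616 and 1027 compared genes, and between 1.79% and 2.84% of them were called. None reached the 6.44% of chromosome 4. The highest of them was on chromosome 10, with 25 of 881 genes. For genes lower in hda108 the stretches ranged from 0.325% to 1.07%, and for higher genes from 0.876% to 2.04%, again below the 3.14% and 3.30% of chromosome 4. The interquartile ranges lay between 0.31 and 0.39, below 0.45. The medians, between 0.06 and 0.08, were close to that of chromosome 4.

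**Figure D2:**
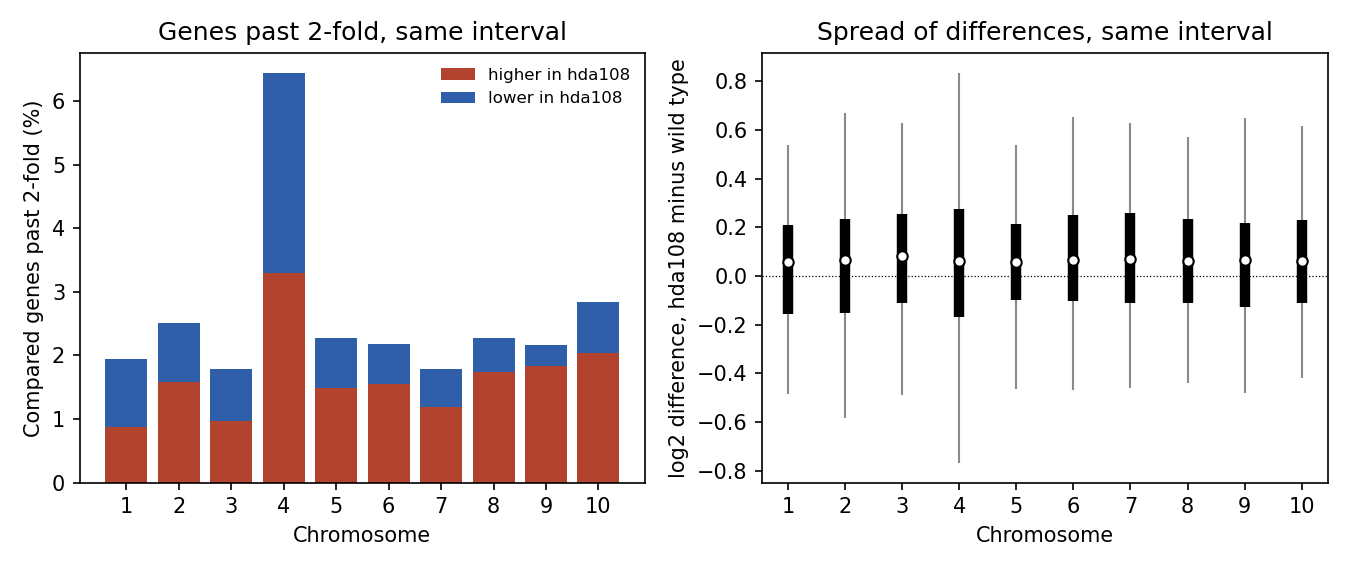
The left panel gives the percent of compared genes at least 2-fold higher (red) or lower (blue) in hda108 in the same interval of each chromosome; the right panel gives the median (circle), the quartiles (thick line) and the percentiles 5 and 95 (ends of the thin line) of the log2 differences. Chromosome 4 has the highest share, 6.44%, and the widest spread, while its median is like the others.

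Along the interval the calls were uneven and did not fall off with distance from HDA108. Within 5 Mb of HDA108, 2 of the 55 other genes were called (3.64%). Between 5 and 20 Mb away 11 of 160 were called (6.88%), between 20 and 40 Mb away 12 of 237 (5.06%), and farther away 15 of 184 (8.15%). In 10 Mb bins the share was lowest between 90 and 100 Mb, with 0 of 23 genes, and highest between 130 and 140 Mb, with 7 of 51 (13.7%). The farthest class and this highest bin both include the 12 genes above 138 Mb, of which 6 were called. Their high shares thus rest largely on that short stretch and are no trend with distance. The bins hold between 18 and 107 genes, so a single gene moves the share of a small bin by several percentage points.

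The direction of the calls is given bin by bin as a description, since each bin holds 7 calls or fewer. Between 20 and 30 Mb 6 called genes were higher and 1 was lower, and between 30 and 40 Mb 4 were higher and 3 lower. From 40 to 60 Mb calls were few, with 2 of 114 genes (1.75%), which is below the 2.04% outside chromosome 4. Between 60 and 70 Mb, where HDA108 lies, 3 were higher and HDA108 was the 1 lower gene. Between 70 and 80 Mb 5 were lower and 1 higher, and between 80 and 90 Mb 3 were lower and 0 higher. Between 90 and 130 Mb 4 were higher and 1 lower. Between 130 and 140 Mb 5 were lower and 2 higher.

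**Figure D3:**
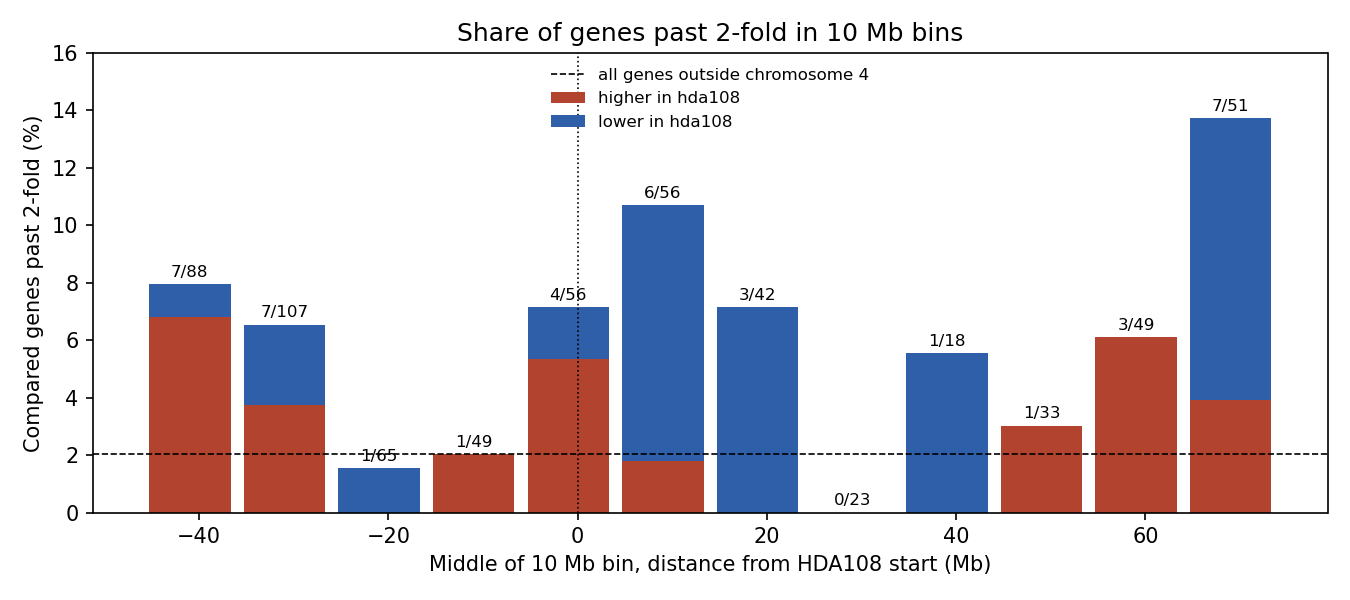
Bars give the percent of compared genes at least 2-fold higher (red) or lower (blue) in hda108 in 10 Mb bins, placed by the distance of the bin's middle from HDA108 in Mb; numbers above bars are called and compared genes. The dashed line is the 2.04% outside chromosome 4, and the bins run from 0 of 23 to 7 of 51.

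The last 2 Mb before the upper bound stood apart within the interval, an observation made after the values were seen. Of the 12 compared genes that start above 138 Mb, 6 were called (50%), 4 lower and 2 higher. GRMZM2G040508 (138657354 to 138661148) had 25.2 FPKM in wild type against 1.83 FPKM in hda108, an 11.0-fold difference downward. GRMZM2G094083 (139504118 to 139510295) had 81.6 FPKM in wild type against 7.98 FPKM in hda108. GRMZM2G109830 (138489005 to 138492593) had 11.8 FPKM in wild type against 1.32 FPKM in hda108. In hda108 these 3 genes stood at 7.26%, 9.78% and 11.2% of their wild-type values, in that order. All 3 were above 10 FPKM in wild type.

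Other genes of this stretch differed in both directions. GRMZM2G433684 (138212330 to 138215521) had 0.152 FPKM in wild type against 6.74 FPKM in hda108, an 11.1-fold difference upward. GRMZM2G133203 (138185803 to 138187797) had 7.11 FPKM in wild type against 18.7 FPKM in hda108. GRMZM2G133226, which ends just before GRMZM2G133203 starts, had 2.55 FPKM in wild type against 2.16 FPKM in hda108. GRMZM2G165387, between 2 of the strongly lower genes, had 11.2 FPKM in wild type against 14.2 FPKM in hda108. GRMZM2G086190 had 6.19 FPKM in wild type against 0.759 FPKM in hda108. The abundant GRMZM2G042181 (139467629 to 139469392) had 1078 FPKM in wild type against 585 FPKM in hda108, a 1.84-fold difference downward. Of the 12 genes 5 lay within 1.5-fold. Without these 12 genes 35 of 625 were called (5.60%).

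At the bounds themselves the values were unremarkable below and mixed above. The last compared gene before 20 Mb, GRMZM2G351347, differed by -0.02 and the first one inside, GRMZM2G064644, by -0.17. The pair of identifiers just inside 140 Mb, GRMZM2G430482 and GRMZM2G430501, share a locus entry and differed by 0.27 and -0.26. The first gene outside, GRMZM2G044882 (140010605 to 140012616), had 0.893 FPKM in wild type against 2.69 FPKM in hda108, a difference of 1.19. On the rest of the chromosome 59 of 1462 genes were called (4.04%), made up of 5 of 218 below 20 Mb (2.29%), 48 of 801 between 140 and 210 Mb (5.99%) and 6 of 443 beyond (1.35%). Between 140 and 210 Mb the interquartile range was 0.45 and 3.50% of genes were lower, beside 0.45 and 3.14% in the interval. The interval's upper bound is therefore not the edge of the chromosome 4 pattern.

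Expression level and locus length both move with the share of called genes, so the interval was set beside the rest of the genome within strata of each. Among genes with a mean of 1 to 5 FPKM, 8.68% were called in the interval and 3.28% outside chromosome 4. Between 5 and 20 FPKM the shares were 5.84% and 1.48%, and at 20 FPKM or more 4.17% and 1.16%. Among loci under 1 kb, 14.6% of 41 genes were called in the interval and 8.76% outside. Between 1 and 3 kb the shares were 8.47% and 2.91%. Among loci of 3 kb or more, 19 of 407 genes were called in the interval (4.67%), against 85 of 11585 outside chromosome 4 (0.734%), a ratio of 6.36. Outside chromosome 4, long loci were seldom called. In the interval the share was higher in each of the 6 strata, and the ratio was lowest, 1.67, in the short loci. Leaving out entries whose locus is shared with another gene gave 36 of 607 (5.93%) against 2.09%.

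**Figure D4:**
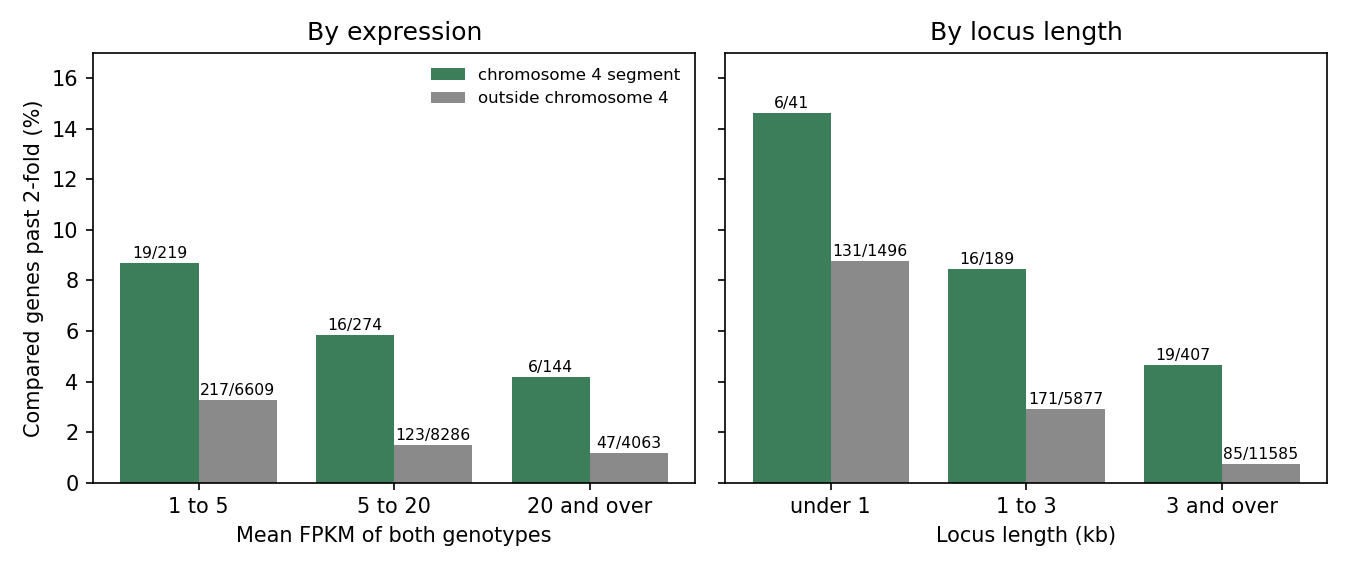
Bars give the percent of compared genes called at 2-fold in the chromosome 4 interval (green) and outside chromosome 4 (grey), by mean FPKM (left) and by locus length in kb (right); numbers above bars are called and compared genes. The interval is higher in each stratum, and for loci of 3 kb or more it has 4.67% against 0.734%.

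Adjacent genes were next compared with each other. Over the 636 pairs of neighbours in the interval, 51.3% lay on the same side of the genome-wide median difference, against 51.8% of 18794 pairs outside chromosome 4. As a description over pairs that share libraries and, in part, members, Pearson's r of neighbouring differences was 0.10 in the interval and 0.06 outside. Both were weak. Pairs in which both genes were called numbered 7 of 636 (1.10%) in the interval and 21 of 18794 (0.112%) outside, beside the higher single-gene share of the interval. Of these 7 pairs 5 went the same way, against 19 of the 21 outside chromosome 4. Among pairs whose loci do not overlap, the counts were 4 of 6 in the interval and 18 of 20 outside.

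The called neighbours formed 5 runs with 12 genes. The clearest pair downward was AC205057.3_FG004 (84864653 to 84867099) and GRMZM2G036605 (84871837 to 84873599). The former had 3.47 FPKM in wild type against 0.242 FPKM in hda108, and the latter 12.2 and 1.03 FPKM. These lie less than 5 kb apart and both were more than 5-fold lower. Upward, GRMZM2G013761 (1.503 FPKM in wild type against 3.62 FPKM in hda108) and GRMZM2G122954 (1.77 and 5.33 FPKM) lie near 22 Mb. GRMZM2G089995 and GRMZM2G090010 share the entry 26450938 to 26455727, so reads cannot be assigned between them with certainty. They had 5.29 and 11.3 FPKM in wild type, and 23.1 and 24.2 FPKM in hda108. The longest run held 4 genes, GRMZM2G133203, GRMZM2G433684, GRMZM2G109830 and GRMZM2G040508 of the last 2 Mb, the first 2 higher and the others lower. The fifth run joined CAOMT, whose locus entry is also shared, and GRMZM2G014902, which went opposite ways.

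Among the largest differences upward, GRMZM2G456422 (126906995 to 126907839) had 0.541 FPKM in wild type against 15.6 FPKM in hda108, a 15.5-fold difference. It is a short locus of 845 bp. GRMZM2G100313 (60848003 to 60855245) had 0.263 FPKM in wild type against 3.34 FPKM in hda108, and GRMZM2G450939 (26718230 to 26722138) had 1.06 and 7.01 FPKM. GRMZM2G431114 had 0.751 FPKM in wild type against 2.88 FPKM in hda108. Genes already well expressed in wild type were also among them. GRMZM2G329962 (68537490 to 68540538), 2.55 Mb from HDA108, had 12.5 FPKM in wild type against 34.2 FPKM in hda108. GRMZM2G049185 had 10.3 FPKM in wild type against 28.0 FPKM in hda108. The 21 higher genes had a median of 1.77 FPKM in wild type against 7.01 FPKM in hda108, and 11 of them had under 2 FPKM in wild type.

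The 20 lower genes had a median of 10.4 FPKM in wild type against 1.70 FPKM in hda108, and 11 of them had under 2 FPKM in hda108. Since direction defined these groups, the medians are a description of the called genes. GRMZM5G896883 (44776397 to 44806553), a long locus of 30157 bp, had 13.6 FPKM in wild type against 1.12 FPKM in hda108, an 8.72-fold difference. It was the 1 called gene between 40 and 50 Mb. Ann5 (GRMZM2G172834, 79784327 to 79785919), which encodes an annexin, a calcium-dependent membrane-binding protein, had 9.83 FPKM in wild type against 1.58 FPKM in hda108. CAOMT (GRMZM5G814904, 32278570 to 32280767), a caffeic acid O-methyltransferase of lignin synthesis, had 306 FPKM in wild type against 138 FPKM in hda108. Its locus entry is shared with AC196475.3_FG004, the most abundant member of the interval, which had 950 FPKM in wild type against 1129 FPKM in hda108. The split of reads between these is uncertain. The more abundant identifier of the entry was higher, so a lower level of this locus as a whole is not shown. HDA108, Ann5 and CAOMT were the 3 called genes with an informative name. All were listed lower, the call of CAOMT resting on that uncertain split.

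GRMZM2G014902 (32527797 to 32560791) had 9.05 FPKM in wild type against 23.8 FPKM in hda108, a 2.54-fold difference upward. The remaining called genes comprised 8 that were between 2.05-fold and 2.54-fold higher and 10 that were between 2.08-fold and 3.90-fold lower. The most abundant of these, GRMZM2G308944, had 308 FPKM in wild type against 148 FPKM in hda108. Of the 41 called genes 5 share their locus entry with another gene, and 17 (41.5%) had no single match in the RefSeq gene table, beside 183 of the 637 (28.7%). In 13 of the 41 both values were at least 5 FPKM, 9 of them higher and 4 lower.

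**Figure D5:**
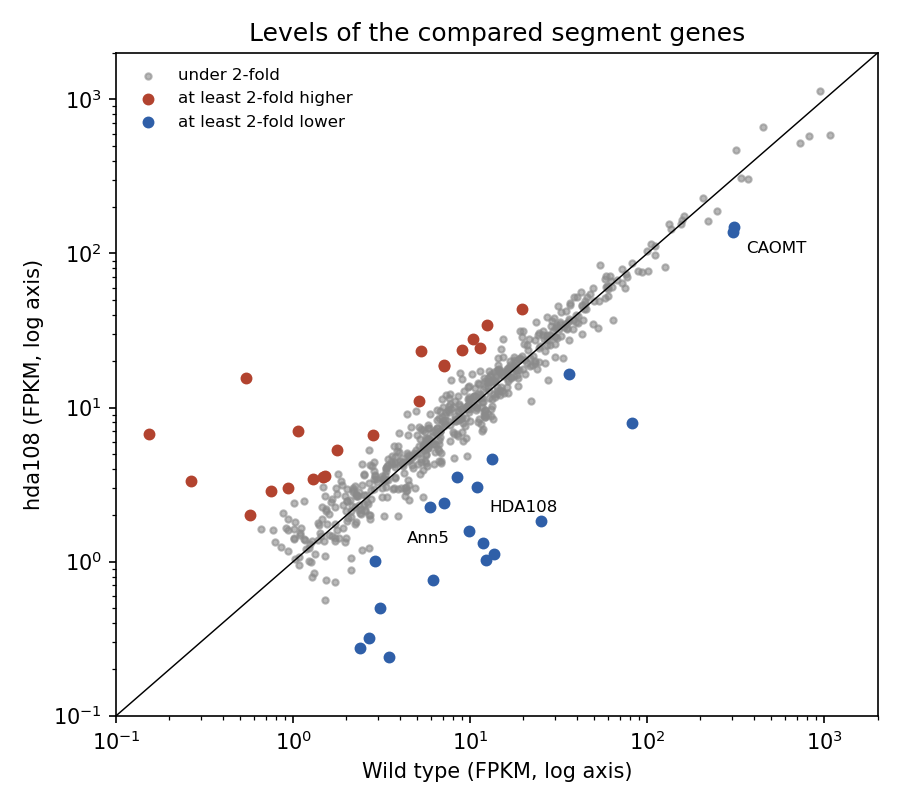
Each point is 1 of the 637 compared genes, by its FPKM in wild type (x, log axis) and in hda108 (y, log axis); the line marks equal values. The 21 higher genes (red) have medians of 1.77 FPKM in wild type against 7.01 FPKM in hda108, and the 20 lower genes (blue) 10.4 and 1.70 FPKM.

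The 8 most abundant genes of the interval were then examined. After AC196475.3_FG004 and GRMZM2G042181 came GRMZM2G174984, which shares its locus entry, with 824 FPKM in wild type against 580 FPKM in hda108, and GRMZM2G160268, with 734 and 519 FPKM. GRMZM2G088511 was higher, with 449 FPKM in wild type against 662 FPKM in hda108, as was GRMZM2G043162, with 318 and 470 FPKM. GAPC1, a cytosolic glyceraldehyde-3-phosphate dehydrogenase of glycolysis whose locus entry is also shared, had 369 FPKM in wild type against 302 FPKM in hda108. GRMZM2G015295 had 338 and 309 FPKM. None of these 8 was called, beside a background of 2.31%. Their differences lay between -0.88 and 0.56, and 6 of the 8 were outside the quartiles of the interval (-0.17 and 0.28). By definition the quartiles leave as many genes of the interval outside as inside, so this count is a description.

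The interval holds 67 identifiers with an informative name, under 64 names, and these were sorted by role from the name. Of the 67, 3 were called (4.48%, beside 2.31% of all compared genes), and the median difference was 0.01. Among the 570 without a name 38 were called (6.67%).

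The 15 identifiers named as transcription factors or transcriptional regulators all lay within 1.5-fold, as did 84.3% of the interval and 91.1% of all compared genes, so the count is near the background. Their differences ran from -0.35 to 0.53 with a median of 0.04. The extremes were TIFY17, of the jasmonate repressor family, with 12.0 FPKM in wild type against 9.30 FPKM in hda108, and NAC115, of the NAC family, with 3.73 and 5.61 FPKM. ANAC044 of the same family differed by 0.52, and bHLH165 by 0.21. For tga1, the SBP-domain gene known from the naked grains of domesticated maize, the difference was 0.01, from 1.19 FPKM in wild type. The KANADI gene kan3 had 1.08 and 0.948 FPKM.

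The 7 signalling genes were also all within 1.5-fold, again near that background, with a median of 0.01. The peptide receptor gene PepR1 differed most, at 0.40 (1.54 FPKM in wild type against 2.19 FPKM in hda108). The small GTPase gene yptm3 differed by -0.22, the receptor kinase gene serk3 by -0.16 and the cytokinin response regulator gene RR7 by -0.14. The meristem receptor gene fea2 had 1.44 FPKM in wild type against 1.47 FPKM in hda108.

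Of the 9 chromatin and DNA genes, HDA108, the targeted gene, was the 1 called, beside 2.31% of all compared genes. Without it the largest differences were those of Spo11-2, a gene of meiotic DNA break formation (0.36, from 1.96 FPKM in wild type), Top1 (-0.23) and PHD33 (-0.21). The histone H2B gene his2b2 had 4.16 FPKM in both genotypes, and the chromatin assembly factor gene nfa103 had 45.3 FPKM in wild type against 43.8 FPKM in hda108.

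Of the 13 identifiers of primary metabolism none was called, near the background of 2.31% of all compared genes. Between 1.5-fold and 2-fold lay 5 of them, 3 higher and 2 lower. Of the whole interval 9.26% of genes lay in that range, and of all compared genes 6.63%. Of the 5 identifiers 2 match the same gene. NNR1, a nitrate reductase, the first enzyme of nitrate assimilation, had 9.56 FPKM in wild type against 4.81 FPKM in hda108, a difference of -0.92. PGR5, a gene of cyclic electron flow in photosynthesis, had 11.7 and 7.23 FPKM. Both identifiers of AMADH1A, an aminoaldehyde dehydrogenase, were higher, GRMZM2G013214 at 15.3 FPKM in wild type against 27.7 FPKM in hda108 and GRMZM2G146754 at 23.5 and 36.1 FPKM. They match a single RefSeq gene and are not independent. The gene gpn1, a non-phosphorylating glyceraldehyde-3-phosphate dehydrogenase, had 54.1 FPKM in wild type against 84.2 FPKM in hda108.

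Among the 5 genes of secondary metabolism and defence, CAOMT was called, subject to the uncertain split of reads at its shared entry. The jasmonate synthesis gene opr8 differed by -0.51, the cuticular wax gene gl8b by 0.49, GST26 by 0.03 and the gene named Myrosinase by 0.02. The 3 genes of protein synthesis and turnover, rpl17, rps13 and Atg8e, lay between -0.19 and 0.13. Among the 15 names not sorted, the 1 called was Ann5. Of all compared genes 2.31% were called, and in groups this small a single call says nothing about a role. The next largest differences were those of ZIP4 (-0.81, from 2.46 FPKM in wild type), glycine1 (-0.64, 127 and 81.3 FPKM) and CA (-0.52).

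Entries nearly absent in 1 genotype were outside the comparison of folds. At least 1 FPKM in wild type and below 0.1 FPKM in hda108 was listed for 5 of the 671 entries of the interval that reached 1 FPKM in either genotype (0.745%). The background was 0.0412% of the entries outside chromosome 4, where 8 of 19417 met the rule. In the other direction the counts were 1 of 671 (0.149%) and 28 of 19417 (0.144%). By these listed values, entries near 0 in hda108 were more frequent in the interval than outside chromosome 4, and entries near 0 in wild type were about as frequent. The rest of chromosome 4 was not counted on its own, so this is not shown to be particular to the interval.

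The 5 entries were all weak in wild type. GRMZM2G024109 (136540698 to 136545027) had 1.77 FPKM in wild type against 0.0769 FPKM in hda108, and GRMZM2G133568, which shares its locus entry, had 1.30 and 0.0826 FPKM. GRMZM2G071396 (138248436 to 138252721), in the last 2 Mb, had 1.18 and 0.0695 FPKM. GRMZM2G180547 (71082393 to 71084453) had 1.16 and 0.0178 FPKM. The precursor MIR169i had 1.06 FPKM in wild type and was listed at 0 in hda108, which can be a failed estimate. None of them reached 2 FPKM.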

How the data were processed

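The deposited table holds FPKM values, made by the authors, with 1 value per gene and genotype from 3 libraries each. Per the submitters' processing notes the tools were Cuffdiff 2.2.1, Cufflinks, SAMtools, TopHat2 2.0.13, Trimmomatic 0.33 and CASAVA 1.8 and the build was B73 RefGen_v3, without roles or settings, so scaling between libraries is unknown. The column named as homozygous was read as hda108. Depth is unknown: among the 200 genes of lowest mean, no ratio of genotypes (4 significant digits) was shared by more than 2, so no whole-read steps appeared.

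The members, bounds and lists were chosen with earlier results of these data known, and roles were sorted after values had been seen. With 1 value per genotype no test was possible, and at least 2-fold on log2(FPKM + 0.5) took its place. Genes needed both values above 0 and a mean of at least 1 FPKM. Coordinates are those of the table. Names came from a RefSeq table of Zm-B73-REFERENCE-NAM-5.0, which matched 454 of the 637 members to 1 entry and 6 to several. No sequence was used here. Of 17 tissue markers looked up by name 5 had no match, and 1 further marker is not reported here.

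Genes were named by rule: HDA108, its 5 nearest compared genes on either side, the 8 largest differences each way, called genes with names, the 8 most abundant, runs of called neighbours, entries nearly absent in 1 genotype, and up to 4 per role. Others were chosen after their values were seen. The counting was run on simulated differences, with planted changes well past the threshold and all others held below it. This checked the counting alone. The software was matplotlib 3.10.9, scipy 1.17.1, pandas 2.3.3 and numpy 2.4.6 under Python 3.11.15. Alternatives covered the pseudocount, filters, scaling, bounds, bins and the fold.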

Additional observations from a re-analysis of the deposited data

Results flagged for a closer look

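In the entries left out of the comparison of folds, 1 entry of the interval reached 1 FPKM in hda108 while wild type was listed at 0. It was GRMZM2G119717 (72084612 to 72088899), with 1.16 FPKM in hda108. A listed 0 can be a failed estimate.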

How the results depend on the processing

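The share of called genes in the interval exceeded that outside chromosome 4 under each alternative run, by ratios from 1.86 (at 1.5-fold) to 6.84 (at 3-fold). With a mean of at least 5 FPKM 10 genes were higher and 12 lower, and the interquartile range was 0.39. With no minimum 33 were lower. Bounds of 30 to 130 Mb left 13 higher, and bounds of 40 to 120 Mb left 6 higher and 11 lower among 342 genes, a share of 4.97%; the cause was not tested. At 1.5-fold 15.7% were called, 54 higher and 46 lower, and at 3-fold 2.67%, 5 higher and 12 lower. Centring on the median of all genes moved the median difference to -0.000148 and quantile normalization to 0.0085, by construction. HDA108 differed by -1.80 with a pseudocount of 0.1, by -1.55 with 1, and by -1.74 when centred or quantile-normalized. Of entries nearly absent in 1 genotype, 0 met the rule in either direction at 2 FPKM, and 2 were seen in hda108 alone with a limit of 0.2 FPKM. Of the called genes, the 18 among the largest differences and the named genes kept their call under both pseudocounts and both scalings. Most were picked for large differences, so this was largely fixed in advance, and the other called genes were not followed singly. Over the interval, 28 were higher and 25 lower with a pseudocount of 0.1, and 15 and 19 with 1. Centring gave 18 and 21, and quantile normalization 18 and 23. Leaving out HDA108 or the genes of the last 2 Mb was chosen after seeing the data.

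No paired analysis was possible because the table holds a single value per genotype and leaves no library to drop. Genes under 400 bp and shared entries moved no count by over 1.5 times. The spread between plants is unknown.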
